A study of Homo sapiens with 50 samples.

Results

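The 37 genes described here encode nuclear subunits of complex III and complex IV of the respiratory chain, the electron carrier cytochrome c that connects them, and ATP synthase. They were taken by symbol from tables of 57905 gene entries, in the older ATP5 nomenclature that the tables use, with the entry of higher mean level kept for UQCR11, the 1 member listed 2 times. By role they divide into 9 complex III subunits, cytochrome c (CYCS), 12 complex IV subunits and 15 ATP synthase subunits. COX6A2 and COX7A1, the forms of complex IV subunits typical of heart and skeletal muscle, are treated apart from the other 35.

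The study followed H1, an established human embryonic stem cell line of wild-type genotype and therefore a single genetic background, by bulk RNA-seq during spontaneous mesendoderm differentiation or cardiac differentiation driven by a WNT inhibitor, with the pH of the culture modified. At days 3, 5, 7 and 11 there were differentiation controls, cells given HCl (an acid), cells given NaHCO3 (sodium bicarbonate, a base), cells given IWP2 (an inhibitor of WNT secretion), cells given IWP2 with NaHCO3, and cells given IWP2 with NaHCO3 and 2-DG (the usual abbreviation of a glucose analogue that blocks glycolysis). Undifferentiated cells were sampled at day 0. Every group, day 0 and controls included, carries the label of cardiac differentiation and of embryonic stem cells, and the labels used here give no dose, pH or length of exposure. Each of the 25 groups has 2 libraries, 50 in all, and nothing says that they came from separate cultures, so the p-values below measure only the spread between these libraries, which may be technical.

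Complex III passes electrons from ubiquinol to cytochrome c, and complex IV passes them from cytochrome c to oxygen. Both pump protons across the inner mitochondrial membrane, and ATP synthase uses that proton gradient to make ATP. Heart muscle depends on this route for most of its ATP, whereas pluripotent cells rely strongly on glycolysis. A few subunits of these complexes are encoded by mitochondrial DNA and all those described here by nuclear DNA, so that the complexes need both genomes.

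Levels are given as FPKM, fragments scaled to the exonic length of the gene and to the mapped fragments of the library, as deposited, with the first and then the second library of a group. Fold changes are on the log2 scale and come from edgeR's quasi-likelihood test on the deposited counts with TMM scaling, fitted to all genes at 1 FPKM or more in at least 2 libraries. A gene is said to have risen or fallen where the Benjamini-Hochberg adjusted p was under 0.05 and the log2 fold change at least 1 in size. Days 3 and 5 were deposited in one table and days 7, 11 and 0 in another. Tests were made only within a table, and levels from the 2 tables are set side by side without a test. The 24 libraries of days 3 and 5 held 14794134 to 22796553 counts each and the other 26 held 14090004 to 20445875. Of the members, 36 passed the filter in each table, COX7A1 but not COX6A2 at days 3 and 5 and COX6A2 but not COX7A1 at the other days. Each heart isoform passed only through the groups in which it was high, so its calls are a description, counts name it apart and medians are given over the other 35 members.

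The cell types implied by the labels were read from marker genes. The summed level of 6 pluripotency markers was 1831 and 1845 FPKM at day 0, and POU5F1 stood at 738 and 770 FPKM there but at 0.07 and 0.04 FPKM in the day 11 controls. At day 11 the controls carried markers of 3 other cell types. The 12 cardiomyocyte markers summed to 753 and 1031 FPKM, the 6 fibroblast and matrix markers to 3215 and 3203 FPKM, the 10 liver and foregut markers to 4977 and 5877 FPKM, and AFP alone, a fetal liver and yolk sac protein, reached 2635 and 3158 FPKM. The skeletal muscle regulators MYOD1, MYOG and MYF5 did not exceed 0.38 FPKM in any library. The 1 skeletal muscle marker of 6 that passed the filter was CKM, a creatine kinase that heart muscle also makes, and its values stand with those of the other markers. In these bulk libraries a smaller number of cells of a type and less RNA per cell cannot be told apart.

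Sequence upstream of the start is shown for 5 members, for these reasons: COX6A2, CYCS and ATP5G1 had the largest changes with IWP2 at day 7, COX6A1 is the gene COX6A2 is measured against, and ATP5C1 holds overlapping matches of a motif described here. RefSeq (GRCh38.p14) promoters were matched for 29 of the 37 members, and the 250 bases before the start are printed 5′ to 3′ on the gene's strand, with matched motifs in capitals. COX6A2 lies at chr16:31428361-31428610 on the minus strand, its ubiquitous counterpart COX6A1 at chr12:120437863-120438112 on the plus strand and CYCS at chr7:25125261-25125510 on the minus strand. ATP5C1, the central stalk of ATP synthase, lies at chr10:7787927-7788176 and ATP5G1, a gene of its membrane ring, at chr17:48892537-48892786, both on the plus strand.
COX6A2: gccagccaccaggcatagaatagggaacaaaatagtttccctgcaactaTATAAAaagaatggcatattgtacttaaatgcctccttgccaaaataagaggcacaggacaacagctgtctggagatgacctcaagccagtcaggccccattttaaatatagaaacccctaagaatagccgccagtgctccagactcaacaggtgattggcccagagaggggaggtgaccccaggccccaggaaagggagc
COX6A1: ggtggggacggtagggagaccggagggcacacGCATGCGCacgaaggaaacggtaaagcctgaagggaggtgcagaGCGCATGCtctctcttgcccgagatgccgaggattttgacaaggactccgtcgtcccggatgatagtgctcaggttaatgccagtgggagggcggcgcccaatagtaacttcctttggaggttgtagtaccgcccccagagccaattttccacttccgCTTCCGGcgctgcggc
CYCS: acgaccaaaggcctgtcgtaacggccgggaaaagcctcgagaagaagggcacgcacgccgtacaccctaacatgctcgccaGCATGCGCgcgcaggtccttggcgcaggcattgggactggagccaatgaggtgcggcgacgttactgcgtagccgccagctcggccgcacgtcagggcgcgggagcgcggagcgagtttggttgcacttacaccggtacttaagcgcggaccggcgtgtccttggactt
ATP5C1: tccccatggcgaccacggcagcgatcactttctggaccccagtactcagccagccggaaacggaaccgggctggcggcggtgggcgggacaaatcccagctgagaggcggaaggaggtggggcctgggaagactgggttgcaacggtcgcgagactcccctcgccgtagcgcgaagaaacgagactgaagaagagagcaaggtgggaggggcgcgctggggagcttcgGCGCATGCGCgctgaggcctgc
ATP5G1: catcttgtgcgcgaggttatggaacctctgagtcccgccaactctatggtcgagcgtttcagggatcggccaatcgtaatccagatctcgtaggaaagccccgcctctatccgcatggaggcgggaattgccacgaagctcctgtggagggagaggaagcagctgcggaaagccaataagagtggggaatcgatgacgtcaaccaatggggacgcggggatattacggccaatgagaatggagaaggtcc
The capitals are GCGCATGC, the core read by nuclear respiratory factor 1 (NRF1) (COX6A1, CYCS and ATP5C1), CCGGAAG, an ETS core (COX6A1), or TATAAA (COX6A2). TATAAA has the letters of a TATA box, and in COX6A2 it lies at -201 from the start. Whether it acts as one was not tested. Both strands were searched, and the NRF1 matches of ATP5C1 overlap each other.

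Across the 34 promoter windows of the 29 matched members, the NRF1 core was present in 8, or 23.5%, against 2.63% of all 35116 RefSeq promoter windows. The members holding it were ATP5C1, ATP5G2, ATP5I, ATP5J, COX5B, COX6A1 and CYCS. The ETS core CCGGAAG was present in 11 windows, or 32.4%, against 8.52% of all. AAGGTCA, the core bound by estrogen-related receptors, was in 8.82% against 3.44%, the E-box CACGTG in 8.82% against 6.34%, and TATAAA in 11.8% against 10.7%. COX6A2 held TATAAA but none of the other motifs in this window, and ATP5G1 held none of the 5. These matches describe letters only, and no binding was measured.

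In the controls most members were lower at day 7 than in undifferentiated cells. Summed over all members the level was 2681 and 2809 FPKM at day 0 and 1678 and 1751 FPKM at day 7, without overlap. Of 36 members tested, 12 fell and 0 rose, while 15.6% of all genes tested fell. At adjusted p alone 30 were lower, against 34.4% of all genes. The median log2 fold change over the 35 members was -0.74, and TMM scaling placed the values of this comparison 0.17 lower on the log2 scale than FPKM did (a shift of -0.17).

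The falls from day 0 to day 7 took in every functional class. CYCS went from 85.3 and 90.6 FPKM at day 0 to 26.7 and 28.2 FPKM at day 7 (log2 fold change -1.85, edgeR adjusted p = 4.33e-13). ATP5G1, 1 of 3 genes that encode the same ring subunit of ATP synthase, went from 21.3 and 24.3 FPKM to 8.40 and 8.12 FPKM (log2 fold change -1.64). The other members that fell were the complex III subunits UQCRH, CYC1 and UQCRFS1, the complex IV subunits COX5A, COX8A, COX7B, COX6A1 and COX7C, and the ATP synthase subunits ATP5H and ATP5I, with log2 fold changes between -1.27 and -1.02. ATP5E, the smallest subunit of the catalytic part, went the other way, from 11.7 and 11.6 FPKM to 22.2 and 23.6 FPKM, a log2 fold change of 0.81 that passed the adjusted p of edgeR (0.00589) but not the fold threshold. With limma on log2(FPKM + 1) 6 members fell, CYCS, ATP5G1, UQCRH, COX5A, ATP5H and COX8A. The calls were lost without 1 library for UQCRFS1 (-0.88 without the first control library), ATP5I (-0.92 without the second) and COX7C (-0.95 without the first), and for UQCRFS1 and COX7C also without the second library of day 0 (both -0.98).

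In the controls the members summed to 1758 and 1959 FPKM at day 11, both above the 2 libraries of day 7. At adjusted p alone 9 members were higher, and the share of all genes at that threshold is not given here. COX6A2 alone of 36 members rose, against 7.64% of all genes. It stood at 0.37 and 0.06 FPKM at day 7 and 0.94 and 1.55 FPKM at day 11 (log2 fold change 2.58, edgeR adjusted p = 0.00117). That call rests on 35 pooled counts against 6. Without the second control library of day 7 it was 1.72 with an edgeR adjusted p of 0.0594.

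**Figure D1:**
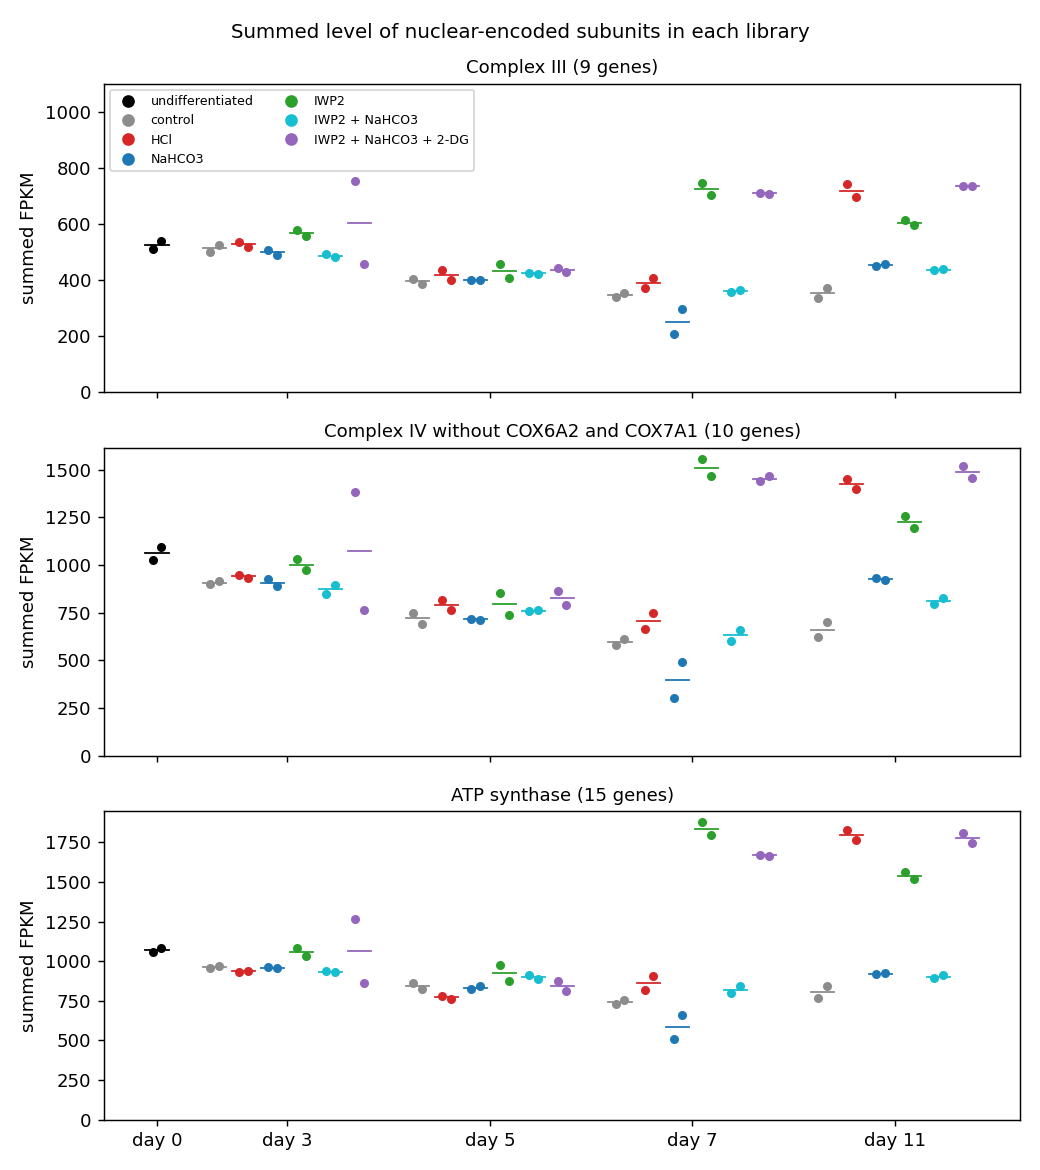
Summed FPKM of the 9 complex III, 10 complex IV (heart isoforms left out) and 15 ATP synthase genes in each library, by day, with treatments in colour; dots are libraries and dashes the means of 2. At day 7 the IWP2 libraries and those with 2-DG sit above all others in every panel, and at day 11 they are joined by the HCl libraries.

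At day 3 no member rose or fell in any of the 5 comparisons. With HCl, 0 of 36 were called against 10.6% of all genes, and 2 had an unadjusted edgeR p under 0.05. With NaHCO3, 0 were called against 4.08%, with 4 under 0.05 unadjusted. With IWP2, 0 were called against 0.613%, with none under 0.05 unadjusted, although 33 of the 35 members had a positive fold change (median 0.15). With NaHCO3 added to IWP2, 0 were called against 3.19%, with 3 under 0.05 unadjusted. With 2-DG added to those, 0 were called against 3.59%, with 27 under 0.05 unadjusted. DESeq2 and limma also called 0 in each of the 5 comparisons.

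CYCS was the 1 member that passed the adjusted p alone with HCl and with NaHCO3 at day 3. It stood at 21.9 and 22.1 FPKM in the controls, 15.1 and 16.0 FPKM with HCl and 25.7 and 29.6 FPKM with NaHCO3, so that the 3 pairs did not overlap. The log2 fold changes were -0.42 with HCl (edgeR adjusted p = 0.0154) and 0.38 with NaHCO3 (edgeR adjusted p = 0.0495), both under the fold threshold. Both comparisons use the same 2 control libraries.

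The highest sum at day 3 came from 1 library of a pair. In the group given IWP2, NaHCO3 and 2-DG the members summed to 3433 FPKM in the first library and 2110 FPKM in the second, and 34 of the 35 were higher in the first. The gap was a median log2 of 0.89 for the 20 members with under 450 coding bases and 0.73 for the 15 longer ones. With both libraries 10 members were higher at adjusted p alone, against 9.49% of all genes, among them ATP5D (0.90), UQCRQ (0.70) and COX4I1 (0.69). Without the second library ATP5D was at 1.48, a value that rests on the 1 remaining library of the group.

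At day 5 cytochrome c was the 1 member called in any comparison. Of 36 members 0 were called with HCl (20.0% of all genes), 0 with NaHCO3 (6.39%), 0 with IWP2 (6.77%) and 0 with NaHCO3 added to IWP2 (5.81%), and DESeq2 and limma also called 0 in each. At an unadjusted edgeR p under 0.05 the counts were 5, 0, 1 and 1. With 2-DG added to IWP2 and NaHCO3, 1 member rose, against 16.5% of all genes changed in either direction. It was CYCS, from 17.6 and 16.7 FPKM to 35.03 and 35.5 FPKM (log2 fold change 1.21, SE 0.126, edgeR adjusted p = 2.12e-07). On log2(FPKM + 1) with limma the same difference was 1.00 and missed the fold threshold.

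The response of CYCS to HCl changed direction between days 3 and 5. At day 5 the controls stood at 12.99 and 13.5 FPKM and the HCl libraries at 21.4 and 22.0 FPKM, a log2 fold change of 0.75 (edgeR adjusted p = 6.21e-05). The difference between the HCl effects of the 2 days was 1.17 (SE 0.178, edgeR adjusted p = 4.15e-05), and CYCS was the 1 member of 36 called in that test, against 16.4% of all genes. CYC1, the cytochrome of complex III that hands electrons to CYCS, was also higher with HCl at day 5, at 0.50 (edgeR adjusted p = 0.00249). In the controls themselves 0 members were called between days 3 and 5, against 18.1% of all genes, with 8 under 0.05 unadjusted by edgeR and 0 called by DESeq2 and limma. CYCS (-0.68) and ATP5H (-0.64) were the lowest.

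At day 7 IWP2 brought a rise of nearly the whole set. Summed over the members the level was 1678 and 1751 FPKM in the controls and 4329 and 4101 FPKM with IWP2, a ratio of 2.46. Of 36 members 32 rose and 0 fell, 31 of the 35 and COX6A2, while 8.50% of all genes rose. The median log2 fold change over the 35 was 1.29, against a median between -0.04 and 0.04 over all genes in every comparison. For each of the 35, both IWP2 libraries lay above both control libraries in FPKM. How many of all genes separated in this way was not counted.

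Of the 9 complex III genes 8 rose with IWP2 at day 7, with a median log2 fold change of 1.23. UQCRC2, a core protein of the complex, stood at 30.6 and 29.8 FPKM in the controls and 75.0 and 71.1 FPKM with IWP2, the largest change of the complex at 1.37. UQCRC1, its partner, stood at 32.9 and 33.6 FPKM against 74.5 and 75.2 FPKM. UQCRQ, a small subunit, was the 1 that did not rise, at 0.66.

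CYCS was the most changed of the widely expressed members next to ATP5G1. It stood at 26.7 and 28.2 FPKM in the controls and 144 and 129 FPKM with IWP2 (log2 fold change 2.41, SE 0.112, edgeR adjusted p = 1.49e-14). Among the 50 libraries those given 2-DG at days 7 and 11 came nearest, at 117 to 134 FPKM.

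All 10 widely expressed complex IV genes rose with IWP2 at day 7, from 1.08 for COX4I1 to 1.85 for COX7B (median 1.48). COX7B, a small supernumerary subunit, stood at 15.5 and 16.6 FPKM in the controls and 55.9 and 52.4 FPKM with IWP2. COX5A, a regulatory subunit, stood at 38.5 and 36.5 FPKM against 112 and 102 FPKM (1.61). COX8A, the most abundant complex IV member per length, stood at 134 and 141 FPKM against 343 and 345 FPKM (1.42).

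Of the 15 ATP synthase genes 12 rose, with a median log2 fold change of 1.36. ATP5G1 stood at 8.40 and 8.12 FPKM in the controls and 42.5 and 40.1 FPKM with IWP2 (log2 fold change 2.42, SE 0.124, edgeR adjusted p = 1.72e-14). ATP5B, the catalytic beta subunit and the most abundant member per length, stood at 234 and 244 FPKM against 723 and 692 FPKM (1.66, SE 0.0703, edgeR adjusted p = 1.49e-18). The 3 that did not rise were ATP5J2 (0.73), ATP5G2 (0.51) and ATP5E (0.51, edgeR adjusted p = 0.0736).

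**Figure D2:**
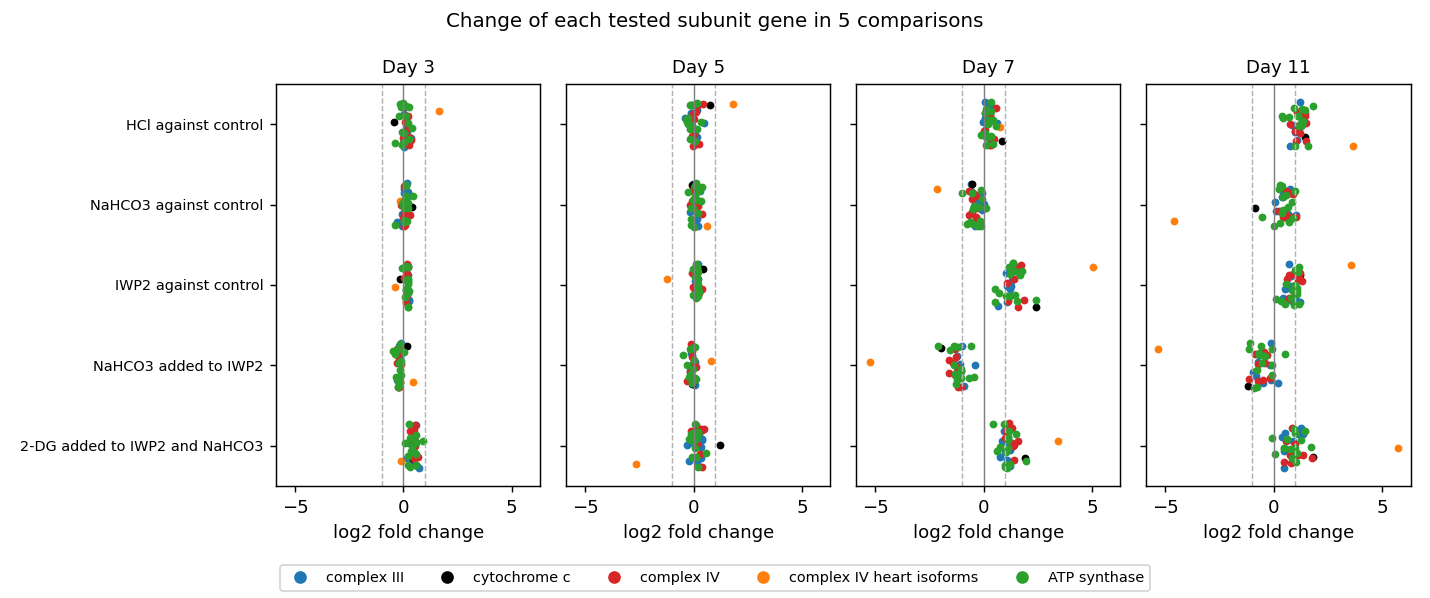
Log2 fold change of every tested member in 5 comparisons at days 3, 5, 7 and 11, from edgeR; each dot is a gene and the dashed lines mark 1 and -1. The clouds stay within the dashed lines at days 3 and 5 for nearly all genes, and at day 7 they shift up with IWP2 (median 1.29), down when NaHCO3 is added to it (-1.23) and up again with 2-DG (1.13).

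NaHCO3 given together with IWP2 took the members back near the control level at day 7. They summed to 1797 and 1899 FPKM, 0.438 of the level with IWP2 alone. Of 36 members 31 fell and 0 rose, 30 of the 35 and COX6A2, while 8.29% of all genes fell. The median over the 35 was -1.23. For all 35 both libraries lay below both IWP2 libraries, again without a count over all genes. ATP5G1 fell by 2.12 on the log2 scale, to 9.24 and 10.6 FPKM, and CYCS fell by 1.95, to 35.8 and 37.7 FPKM. COX5B fell by 1.62, the most of complex IV, of which all 10 genes fell, and UQCRC2 fell by 1.30, the most of complex III, of which 7 of 9 fell. Of ATP synthase 12 of 15 fell, and ATP5E (-0.45) and UQCRQ (-0.39) changed least.

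Adding 2-DG to IWP2 and NaHCO3 restored the high level at day 7. The sum was 3953 and 3972 FPKM, 2.14 times that without 2-DG. Of 36 members 26 rose and 0 fell, 25 of the 35 and COX6A2, against 7.10% of all genes that rose. All 36 were higher at adjusted p alone, for which the share of all genes is not given here. The median over the 35 was 1.13. The rises were 1.98 for ATP5G1, 1.901 for CYCS, which reached 126 and 134 FPKM, 1.57 for COX7B and 1.52 for ATP5G3. The count was 5 of 9 in complex III, 9 of 10 in complex IV and 10 of 15 in ATP synthase, and ATP5G2 changed least at 0.43. The 3 comparisons are not independent of each other, since the first and second share the IWP2 libraries and the second and the last those given IWP2 with NaHCO3.

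HCl and NaHCO3 alone called no member at day 7. With HCl, 0 of 36 were called against 14.3% of all genes, by edgeR, DESeq2 and limma alike. At an unadjusted edgeR p under 0.05 there were 14, and the same number was higher at adjusted p alone, against 23.1% of all genes. CYCS was at 43.2 and 51.5 FPKM against 26.7 and 28.2 FPKM in the controls (0.84). With NaHCO3, 0 were called by edgeR and by DESeq2 against 10.2%, and 1, ATP5I, by limma. At an unadjusted edgeR p under 0.05 there were 24, and 19 were lower at adjusted p alone against 20.0%. The median over the 35 was -0.41, and ATP5I, a small membrane subunit of ATP synthase, was the lowest at -0.98.

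The 2 NaHCO3 libraries of day 7 did not match each other. ATP5I stood at 9.86 FPKM in the first and 24.02 FPKM in the second, against 37.8 and 35.1 FPKM in the controls. All 35 members were lower in the first library, with a median log2 difference of -0.89 in the 20 genes with under 450 coding bases and -0.21 in the 15 longer ones. Gene length or fragment size as a cause was not tested. Without the second library ATP5I was at -1.74, and here too the value rests on 1 library of the group. Without the second control library ATP5I was at -1.05.

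At day 11 HCl alone reached the high level. The members summed to 1758 and 1959 FPKM in the controls and 4132 and 3960 FPKM with HCl, a ratio of 2.18. Of 36 members 27 rose and 0 fell, 26 of the 35 and COX6A2, while 8.37% of all genes rose. The median over the 35 was 1.15. For all 35 both HCl libraries lay above both control libraries, a separation not counted over all genes.

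Among the 35, ATP5G1 led the rises with HCl at day 11, from 11.6 and 13.1 FPKM to 43.0 and 39.3 FPKM (log2 fold change 1.82, edgeR adjusted p = 1.48e-12). In ATP synthase 11 of 15 rose, among them ATP5G3 (1.61) and ATP5B (1.46), which went from 251 and 274 FPKM to 687 and 673 FPKM. CYCS rose from 31.1 and 37.8 FPKM to 92.1 and 86.8 FPKM (1.46, SE 0.109, edgeR adjusted p = 5.77e-11). In complex IV 8 of 10 rose, led by COX6B1 (1.50), COX5A (1.48) and COX7B (1.46), and COX7A2 was lowest at 0.75. In complex III 6 of 9 rose, led by UQCRC2 at 1.28, and UQCRQ was lowest at 0.75. ATP5E, at 0.37, was the least changed member.

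The rise with HCl came largely between days 7 and 11. At day 7 the mean FPKM with HCl was already above that of the controls for 30 of the 35 members and below it for 5. How many of all genes were higher in this way was not counted. Within the HCl libraries 24 of 36 members rose, 23 of the 35 and COX6A2, against 11.1% of all genes, with a median of 1.07 over the 35. ATP5G1 (1.92), ATP5G3 (1.56), COX7B (1.53) and ATP5J (1.49), a stalk subunit of ATP synthase, led the 35, and COX6A2 stood at 5.46. CYCS rose by 1.02, but by 0.98 without the first HCl library of day 11 and by 0.85 without the first of day 7, both under the fold threshold. The HCl effect against the controls was larger at day 11 than at day 7 for 15 of 36 members, 14 of the 35 and COX6A2, against 7.12% of all genes, in the test of that difference. Its values were 1.42 for ATP5G3, 1.27 for ATP5G1, 1.24 for COX6B1 and 1.16 for COX7B, and CYCS, at 0.62, and ATP5G2, at 0.02, were not called. COX6A2 was called at 2.89 (edgeR adjusted p = 0.0220) but not without the first control library of day 7 (1.32, edgeR adjusted p = 0.681) or of day 11 (2.54, edgeR adjusted p = 0.0508).

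HCl and IWP2 differed at day 7 and came close at day 11. At day 7, 23 of 36 members were lower with HCl than with IWP2 at the call threshold, 22 of the 35 and COX6A2, against 7.92% of all genes, with CYCS at -1.57 and ATP5G1 at -1.87. At day 11, 0 were called by edgeR, DESeq2 and limma against 6.56% of all genes, with 18 at an unadjusted edgeR p under 0.05. There 14 were higher with HCl at adjusted p alone against 13.9%, and the largest difference was 0.76 for ATP5G1.

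IWP2 still raised part of the set at day 11, from 1758 and 1959 FPKM in the controls to 3534 and 3395 FPKM in sum. Of 36 members 15 rose and 0 fell, 14 of the 35 and COX6A2, against 6.24% of all genes, and 33 were higher at adjusted p alone against 22.1%. The median over the 35 was 0.90. The rises were CYCS (1.23), UQCRC2 (1.19) and UQCRH (1.02) of the electron path before complex IV, COX7B (1.30), COX5B (1.20), COX5A (1.16) and COX6B1 (1.14) of complex IV, and 7 ATP synthase genes led by ATP5O and ATP5G3 at 1.18. Without the first control library of day 11 the calls of ATP5A1, ATP5G1, ATP5H, ATP5J and UQCRH were lost, at 0.94 to 0.98, and that of ATP5J also without the first IWP2 library.

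The IWP2 effect was smaller at day 11 than at day 7 for CYCS (-1.18, edgeR adjusted p = 5.10e-06) and ATP5G1 (-1.35, edgeR adjusted p = 2.82e-06), 2 of 36 members against 4.52% of all genes. Within the IWP2 libraries 1 member, COX6A2, rose from day 7 to day 11 (1.11, edgeR adjusted p = 3.40e-04), against 4.18% of all genes. There 13 members were lower at adjusted p alone, against 15.4% of all genes, with CYCS at -0.79 and ATP5G1 at -0.71.

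NaHCO3 with IWP2 lowered fewer members at day 11 than it had at day 7, although the difference between days was not tested. Of 36 members 5 fell and 0 rose against IWP2 alone, 4 of the 35 and COX6A2, while 8.70% of all genes fell. At adjusted p alone 24 were lower, against 23.9% of all genes tested that were. The 4 were CYCS (-1.18), COX5A (-1.15), ATP5B (-1.15) and ATP5G1 (-1.11). ATP5E lay on the other side at 0.51.

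With 2-DG added, 14 of 36 rose at day 11, 13 of the 35 and COX6A2, against 9.32% of all genes. CYCS rose by 1.83, from 32.8 and 34.1 FPKM to 117 and 118 FPKM, and COX5A, which reached 125 and 138 FPKM, by 1.78. ATP5G1 (1.70), ATP5B (1.45), COX7B (1.34) and the complex III genes UQCRC1 (1.34), CYC1 (1.25) and UQCRC2 (1.14) followed. ATP5E was at -0.08 and ATP5G2 at 0.06. This group held the highest mean of 13 of the 35 members among the 13 groups of days 0, 7 and 11, IWP2 of day 7 that of 10, and NaHCO3 of day 7 the lowest of 32.

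NaHCO3 alone called 3 members at day 11, while at adjusted p alone most members were higher. Of 36 members 2 rose, UQCRB and COX7C, and 1, COX6A2, fell, against 16.9% of all genes changed in either direction. At adjusted p alone 28 were higher and 3 lower, against 52.5% of all genes in either direction. UQCRB, a small complex III subunit, stood at 19.3 and 20.3 FPKM in the controls and 35.3 and 36.0 FPKM with NaHCO3 (log2 fold change 1.05, edgeR adjusted p = 3.59e-04). COX7C, a small complex IV subunit, stood at 88.2 and 102 FPKM against 168 and 169 FPKM (1.03, edgeR adjusted p = 0.00112). Next came ATP5E (0.99), COX7A2 (0.89), ATP5G2 (0.88), ATP5I (0.85) and COX5B (0.83), all under the fold threshold. The median log2 fold change was 0.63 for the 20 members with under 450 coding bases and 0.41 for the 15 longer ones. Gene length as a cause was not tested.

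CYCS and ATP5G1, the 2 of the 35 that rose most with IWP2 at day 7, lay below the controls with NaHCO3 at day 11. CYCS was at 17.1 and 16.5 FPKM with NaHCO3 against 31.1 and 37.8 FPKM (-0.84, edgeR adjusted p = 9.52e-07), and ATP5G1 at 7.76 and 6.99 FPKM against 11.6 and 13.1 FPKM (-0.54). ATP5B was at 0.01. All 10 complex IV genes and 7 of 9 complex III genes were higher at adjusted p alone, as were 11 of 15 ATP synthase genes. TMM scaling placed these values 0.20 above FPKM, on which the median was 0.39 in place of 0.59. On FPKM 27 of the 35 members had both NaHCO3 libraries above both controls, a separation not counted over all genes. The count of 3 became 1 without the first control library of day 11, where UQCRB and COX7C missed the threshold, and 6 without the second, where ATP5E, COX5B and COX7A2 were added.

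**Figure D3:**
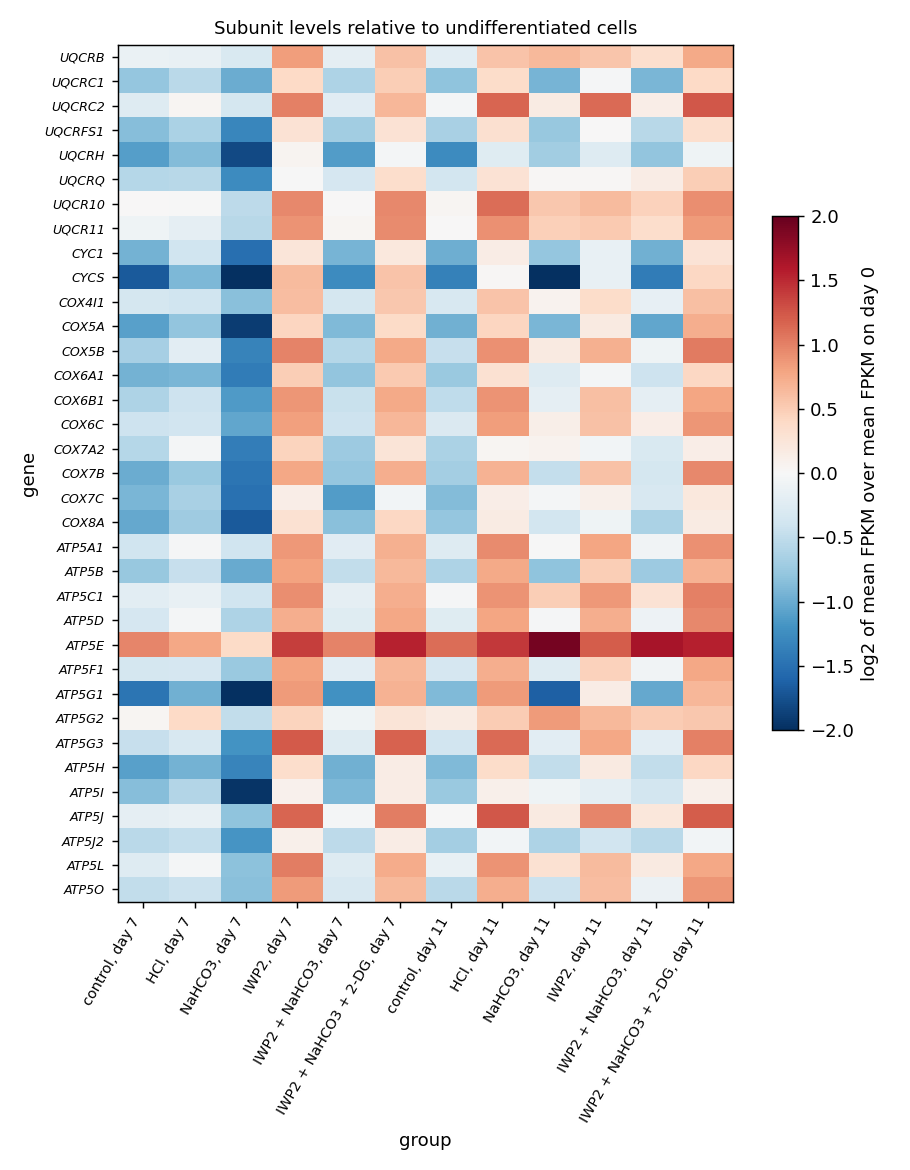
Log2 ratio of mean FPKM to day 0 for the 35 members (rows, by complex) in the 12 groups of days 7 and 11 (columns), with colours limited to 2 and -2. CYCS and ATP5G1 range from below the day 0 level in the controls and NaHCO3 groups to above it with IWP2 at day 7, whereas ATP5E is above day 0 in the controls too.

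COX6A2 was nearly silent outside a few groups. It was at or under 0.17 FPKM in all libraries of days 3 and 5 and at 0.15 and 0.08 FPKM at day 0. At day 7 it stood at 7.02 and 6.58 FPKM with IWP2, 1.93 and 1.87 FPKM with 2-DG as well as IWP2 and NaHCO3, and at most 0.37 FPKM in the other 4 groups. At day 11 it stood at 17.9 and 19.5 FPKM with 2-DG, 16.9 and 12.8 FPKM with HCl, 14.8 and 14.7 FPKM with IWP2, 0.94 and 1.55 FPKM in the controls, 0.26 and 0.43 FPKM with IWP2 and NaHCO3, and 0.07 and 0 FPKM with NaHCO3. At day 11 the HCl and IWP2 libraries did not separate, with HCl at 1.01 times IWP2 (95% counting interval 0.876 to 1.17).

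The fold changes of COX6A2 were large and rest on few counts in the low groups. COX6A2 entered the fit through the groups in which it was high, and in a fit with no filter on low values its log2 fold change with IWP2 at day 7 was 5.05 and each of its 13 calls was made again. Against the controls, IWP2 at day 7 gave 185 pooled counts against 6, a ratio of 32.7 (95% interval 14.8 to 90.3, exact and for counting error only), and a log2 fold change of 5.06 in edgeR (adjusted p = 3.90e-11). HCl at day 11 gave 396 counts against 35, a ratio of 12.1 (8.53 to 17.6), and IWP2 386 against 35, a ratio of 11.9 (8.44 to 17.4). Adding NaHCO3 to IWP2 left 5 pooled counts against 185 at day 7 and 10 against 386 at day 11, ratios of 39.1 (16.4 to 122) and 43.2 (23.2 to 90.7) in favour of IWP2 alone. NaHCO3 alone left 1 count at day 11 against 35 in the controls, a ratio of 34.0 (5.71 to 1379).

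Even where COX6A2 was high, COX6A1, the form found in most tissues, was the larger part of the pair. COX6A2 made up 3.03 and 3.01% of the FPKM of both genes with IWP2 at day 7, 8.74 and 9.04% with IWP2 at day 11, 8.04 and 6.28% with HCl at day 11 and 7.88 and 8.77% with 2-DG at day 11. In the day 11 controls it made up 1.07 and 1.55%. From counts not scaled by exonic length its mean share was 1.73% with IWP2 at day 7. At day 11 it was 5.22% with IWP2, 4.18% with HCl, 4.88% with 2-DG and 0.744% in the controls.

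COX7A1, the heart and muscle form of the COX7A subunit, was under 1 FPKM in 47 of 50 libraries and never above 1.33 FPKM, or 21 counts. Its highest values were with HCl, at 1.04 and 1.14 FPKM at day 3 against 0.26 and 0.48 FPKM in the controls (log2 fold change 1.65, edgeR adjusted p = 0.106), and 1.33 and 0.94 FPKM at day 5 against 0.30 and 0.34 FPKM (1.84, edgeR adjusted p = 0.0594). Neither passed the test, and COX7A1 had entered the fit only through these HCl libraries. In a fit without the 2 day 3 libraries given 2-DG the day 5 value was 1.87 with an edgeR adjusted p of 0.0316, whereas with no filter on low values no member was called at day 5 with HCl, so this value supports no call. COX7A1 was not tested at days 7 and 11, where IWP2 of day 11, at 0.59 and 0.90 FPKM, was among the higher groups.

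**Figure D4:**
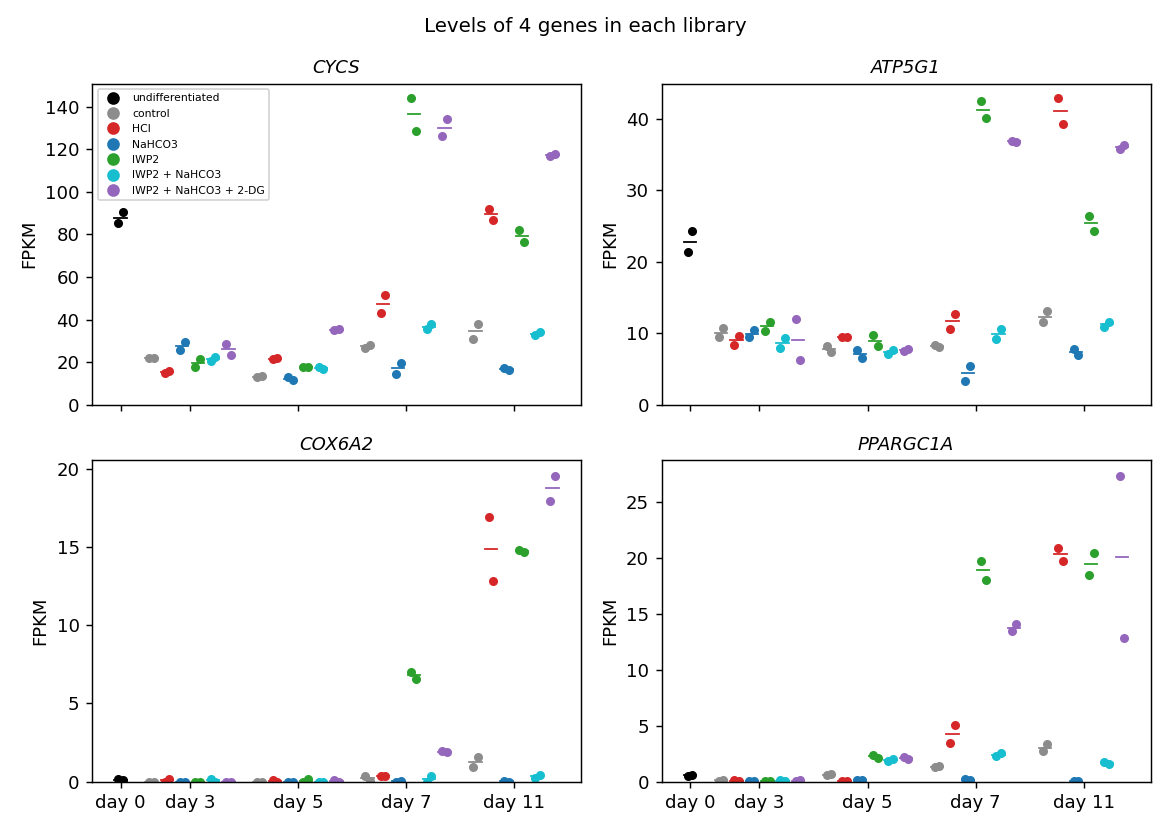
FPKM of CYCS, ATP5G1, COX6A2 and PPARGC1A in every library by group, with dots for libraries. All 4 are high with IWP2 at day 7 and with HCl and with 2-DG at day 11, and PPARGC1A and COX6A2 are near 0 with NaHCO3 at day 11.

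The 3 genes of the ATP synthase ring changed their shares. ATP5G1, ATP5G2 and ATP5G3 encode the same mature protein behind different import signals. ATP5G1 was 13.6 and 12.8% of their summed FPKM in the day 7 controls and 27.0 and 26.1% with IWP2, close to the 26.2 and 27.6% of day 0, which no control library reached. ATP5G2 moved the opposite way, from 51.2 and 51.8% to 26.7 and 28.6%. With NaHCO3 at day 11 ATP5G1 held 8.60 and 7.70% and ATP5G2 62.6 and 62.9%. At days 3 and 5 ATP5G1 held between 8.15 and 12.3% in every library.

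Other genes of oxidative phosphorylation were read in the same comparisons, beside the shares of all genes that rose or fell in them. Of 37 nuclear complex I genes tested, 13 rose and 0 fell with IWP2 at day 7 (median 0.84; 8.50% of all genes rose). When NaHCO3 was added 9 fell (-0.82; 8.29% of all genes), and 12 rose with 2-DG (0.88; 7.10%). At day 11, 14 rose with HCl (0.89; 8.37%) and 5 with IWP2 (0.62; 6.24%). Of 4 complex II genes 3 rose with IWP2 at day 7, led by SDHA, its flavoprotein, at 1.70. Assembly factors of complexes III, IV and ATP synthase had 3 of 29 risen with IWP2 at day 7 (median 0.39), a share near the 8.50% of all genes, with COX17, a copper carrier to complex IV, the highest of them at 1.19. Of 19 mitochondrial genes outside the chain 6 rose there, led by the ATP/ADP carrier of heart and muscle SLC25A4, at 58.4 and 52.1 FPKM against 5.62 and 5.78 FPKM in the controls (3.37). No test set the members against any of these lists.

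The mitochondrially encoded partner subunits were read in the same libraries. The 6 of them in complexes III, IV and ATP synthase all rose with HCl at day 11, while 8.37% of all genes rose. Their values ran from 1.17 for MT-CO1 to 1.48 for MT-ATP6 (median 1.37). With IWP2 at day 7 none was called and all 6 were higher at adjusted p alone (median 0.72), while all 10 nuclear complex IV genes rose. Of all genes 8.50% rose there, and their share at adjusted p alone is not given here. With NaHCO3 at day 11 none was called, against 16.9% of all genes in either direction. All 6 were lower at adjusted p alone, from -0.75 for MT-CYB to -0.48 for MT-ATP6, while the 10 nuclear complex IV genes were higher. At that threshold 52.5% of all genes differed in either direction.

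**Figure D5:**
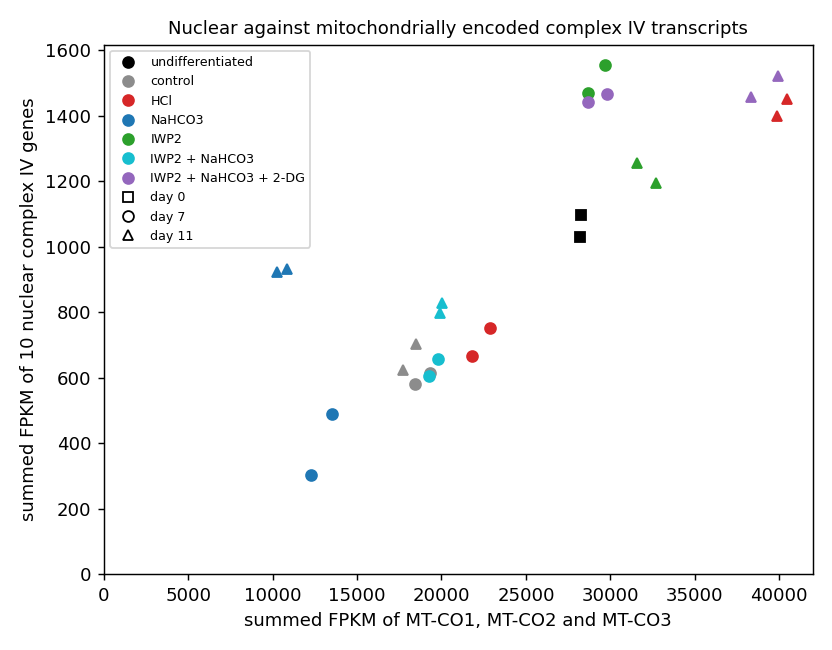
Summed FPKM of the 10 nuclear complex IV genes (vertical) against that of MT-CO1, MT-CO2 and MT-CO3 (horizontal) in each library of days 0, 7 and 11; shapes are days and colours treatments. The NaHCO3 libraries of day 11 have the lowest mitochondrially encoded sums of day 11 with nuclear sums of 931 and 924 FPKM, above the 622 and 702 FPKM of the controls.

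Some transcription coactivators and receptors known to drive mitochondrial genes changed in the same groups. Of 14 regulators tested 4 rose with IWP2 at day 7, against 8.50% of all genes. They were PPARGC1A (3.90), ESRRG (3.11), PPARGC1B (2.97) and ESRRA (1.48). PPARGC1A, a coactivator of mitochondrial biogenesis, stood at 1.30 and 1.39 FPKM in the controls and 19.8 and 18.1 FPKM with IWP2. The same 4 fell when NaHCO3 was added (-3.02, -2.77, -2.10 and -1.44) and rose with 2-DG (2.59, 2.69, 1.82 and 1.31). NRF1 (0.03) and TFAM (0.36), which act on nuclear and on mitochondrial promoters, did not pass the fold threshold with IWP2. With NaHCO3 at day 11 PPARGC1A fell by 4.88 on the log2 scale, to 0.09 and 0.08 FPKM, and ESRRG fell by 2.10, and ESRRA was at 0.07.

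Cell type markers changed in the same comparisons, though not always in the direction of the members, and their part in the results was not tested. The 12 cardiomyocyte markers summed to 495 and 561 FPKM in the day 7 controls, 7332 and 6716 FPKM with IWP2, 713 and 779 FPKM with IWP2 and NaHCO3, and 4887 and 4851 FPKM with 2-DG added, and all 12 rose, fell and rose in the matching comparisons. With HCl at day 7, where no member was called, they summed to 1131 and 1599 FPKM and 10 of 12 rose. At day 11 they summed to 7463 and 7470 FPKM with HCl, 4887 and 5006 FPKM with IWP2 and 137 and 140 FPKM with NaHCO3, against 753 and 1031 FPKM in the controls. The members summed to 2315 and 2324 FPKM with NaHCO3 at day 11, above the 1758 and 1959 FPKM of the controls. The liver and foregut list, 10 of 10 of which fell with HCl at day 11, went from 4977 and 5877 FPKM to 243 and 399 FPKM. The fibroblast and matrix list, 6 of 6 of which fell with IWP2 at day 7, went from 2518 and 2402 FPKM to 338 and 518 FPKM, and with NaHCO3 at day 11 it stood at 6827 and 7022 FPKM. CKM stood at 0.55 and 0.77 FPKM in the day 7 controls and 82.0 and 77.9 FPKM with IWP2 (log2 fold change 6.99), and at day 11 at 11.3 and 14.1 FPKM in the controls, 95.7 and 91.5 FPKM with HCl and 240.4 and 217.9 FPKM with 2-DG. It made up nearly all of the summed level of the 6 skeletal muscle markers in these treated groups, 82.3 and 78.0 FPKM with IWP2 at day 7. At day 0, where cardiomyocyte markers summed to 5.99 and 5.74 FPKM, the members stood at 2681 and 2809 FPKM, above every control library.

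The genes whose group means followed COX6A2 most closely over the 13 groups of days 0, 7 and 11 were RP4-791M13.3, PRSS44, PRSS42, MIR1-2 and MYH7B, with Pearson correlations of log2(FPKM + 1) of 0.994, 0.993, 0.993, 0.986 and 0.984 among 10983 genes. The points share libraries and treatments, and the values only describe likeness. For COX7A1 the closest were PLCXD3 (0.887), NFIL3 (0.844), NBAS (0.827), ELP3 (0.825) and ZDHHC2 (0.819), a ranking that rests on its few counts.

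Some members share sequence or strand with other genes, which the counting could split. For 25 of them the tables list pseudogene entries, 130 in all, whose level reached at most 7.25% of the member's, in the case of CYCS. For 6 members a gene on the opposite strand overlaps and reached 10% or more of the member's level, COX4I1 with EMC8, ATP5A1 with HAUS1, ATP5F1 with WDR77, ATP5H with KCTD2, ATP5J with GABPA and ATP5J2 with CPSF4, and strand use is not given in the sources used here. On GRCh37, the build of the tables, CYCS spans chr7:25159710-25164980 and ATP5G1 chr17:46970127-46973233, COX6A2 chr16:31439052-31439967 and COX7A1 chr19:36641824-36643771.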

How the data were processed

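Per the labels' protocols, the RNA reagent was RNAiso Plus and the library kit was VAHTS Universal V8. The submitters' processing notes name cutadapt 1.9.1, HISAT2 2.0.1, HTSeq 0.6.1 and GRCh37. Strand use is not given in the sources used here. The values used, both deposited by the authors per gene and library, are whole-number counts and FPKM, which divides by exonic length and by library size.

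From the deposited counts, edgeR 4.0.16 (R 4.3.3) fitted a robust quasi-likelihood model with TMM scaling to each table separately, with every group of the table in the fit. Genes at 1 FPKM or more in at least 2 libraries entered, and p-values were Benjamini-Hochberg adjusted over all of them in each comparison. FPKM was used for levels, sums and shares. The biological coefficient of variation was 0.119 for days 3 and 5 and 0.0669 for the other days. The procedure was tested on simulated counts.

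The members and gene lists were chosen with earlier results of these data known. Any member could be named. In each comparison these were the heart isoforms, CYCS, up to 8 further called members of largest change and the extremes. In each pathway list they were up to 3 called genes of largest change. For COX6A2 and COX7A1, 5 genes were named by correlation over 13 group means. Alternatives were DESeq2 1.42.0, no filter on low values, limma 3.58.1 on log2(FPKM + 1) and log2(FPKM + 0.1), a replicate block, the compared days only, and each library left out in turn. In every pair the 2 libraries differed by more than sampling noise, so none was counted as a duplicate. Intervals cover counting error only. Promoter windows are from RefSeq on GRCh38.p14, while gene coordinates are on GRCh37. Members on chromosome 8 have no promoter shown here, and protein sequences were not used here.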

Additional observations from a re-analysis of the deposited data

Results flagged for a closer look

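Tests of whether an effect differed between days singled out the following results, given as values. Between days 3 and 5 the effect of HCl was called different for 1 of 36 members, against 16.4% of all genes. That member was CYCS, whose effect was 1.17 higher at day 5 on the log2 scale.

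The HCl effect was larger at day 11 than at day 7 for 15 of 36 members, against 7.12% of all genes. The largest differences were 2.89 for COX6A2, which was not called without the first control library of day 7 (1.32) or of day 11 (2.54), 1.42 for ATP5G3, 1.27 for ATP5G1, 1.24 for ATP5J, ATP5O and COX6B1, 1.16 for COX7B, 1.14 for ATP5H and 1.13 for COX6C.

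The IWP2 effect was smaller at day 11 than at day 7 for 2 of 36 members, a share near the 4.52% of all genes. They were CYCS at -1.18 and ATP5G1 at -1.35.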

How the results depend on the processing

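Counts of called members kept within 1.5 times of those given in 30 of 30 comparisons with DESeq2 and in 30 of 30 with a replicate block. They did so in 29 with no filter on low values, in 25 with limma on log2(FPKM + 1), in 27 with limma on log2(FPKM + 0.1), and in 28 of 28 with the compared days only. The exceptions were 1 call in place of 0 for NaHCO3 at day 7 under no filter and under both limma scales, 6 in place of 12 for controls from day 0 to 7 under both limma scales, and with log2(FPKM + 1) 0 in place of 1 for 2-DG at day 5 and for controls from day 7 to 11 and 1 in place of 3 for NaHCO3 at day 11. With log2(FPKM + 0.1) IWP2 from day 7 to 11 gave 0 in place of 1. Without the 2 libraries with 2-DG of day 3, HCl at day 5 gave 1 in place of 0.

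With each library left out in turn, the counts ranged from 0 to 9 for 2-DG at day 3, 0 to 10 for NaHCO3 at day 7, 1 to 6 for NaHCO3 at day 11 and 0 to 1 for controls from day 7 to 11. They ranged from 30 to 32 for IWP2 at day 7, 26 to 31 with NaHCO3 added, 22 to 26 with 2-DG added, 23 to 30 for HCl at day 11 and 10 to 18 for IWP2 at day 11. Each of these fits left 1 library in a group, and the share of all genes it called is not given here. Over 2403 alternative values of 233 called member results, 2225 were called again, 178 were not and 0 reversed. Member results that were not called at first are outside this tally. The cause was not tested.

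The replicate numbers were not taken to pair the libraries, since deviations of same-numbered libraries correlated above 0.1 in 15 of 66 pairs of groups at days 3 and 5 (median 0.0147, highest 0.513) and in 3 of 78 at the other days (median -0.00686, highest 0.150). With the replicate block the counts of calls were the same as without it in all 30 comparisons, 32, 31 and 26 for the 3 comparisons with IWP2 at day 7 and 27 for HCl at day 11. With 2 libraries a group, depth limits COX6A2 and COX7A1, whose lowest libraries had 0 counts, while the other 35 had 159 or more in every library.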

Other observations

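Alternative complex IV subunits outside the 37 members had their own pattern. COX6B2, the form known from testis, stood at 4.46 and 3.53 FPKM with NaHCO3 at day 7 against 0.09 and 0.13 FPKM in the controls (log2 fold change 5.28 in edgeR), and at 8.77 and 8.90 FPKM at day 11 against 2.20 and 1.82 FPKM (2.33). With HCl at day 11 it was at 0.04 and 0.03 FPKM (-5.60). With IWP2 and NaHCO3 it stood at 3.34 and 4.02 FPKM at day 11 against 0.36 and 0.31 FPKM with IWP2 alone (3.52), and it was listed at 0 in both libraries with 2-DG added. Its common counterpart COX6B1 rose with HCl at day 11. COX4I2, the form of the COX4 subunit known from lung and responsive to low oxygen, stood at 1.74 and 1.92 FPKM with NaHCO3 at day 11 against 0.22 and 0.32 FPKM in the controls (2.91). NDUFA4, a subunit now placed in complex IV, rose with IWP2 at day 7 (1.21) and with HCl at day 11 (1.18).

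The share of all counts on mitochondrially encoded genes was 3.81 and 3.95% in the day 11 controls, 9.87 and 9.75% with HCl and 2.54 and 2.40% with NaHCO3. At day 0 it was 5.11 and 5.13%.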
